A study of Mus musculus with 8 samples.

Results

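The genes described here are 10 genes by which mesenchymal fibroblasts are commonly recognised, Pdgfra, Pdgfrb, Thy1, Cd34, Prrx1, Twist1, Twist2, Vim, S100a4 and Dpt. They were taken by name out of the 46078 gene IDs in the count tables, and all 10 were found. RNA-seq of mouse embryonic fibroblasts (MEFs), cells grown from embryos, covered 8 samples in 4 groups of 2. The cells were clonal female lines from a cross of a 129 strain with CAST/EiJ, in which X inactivation has silenced the X of 129 origin, the Xi, while the CAST copy stays active. WT cells carry Xist, the noncoding RNA of X inactivation, on the Xi, and XiΔXist cells lack it there. XiΔXist shSCR and XiΔXist shYY1 are XiΔXist cells transduced by lentivirus with a scrambled short hairpin RNA or with hairpins that target YY1, a zinc finger transcription factor, and selected with puromycin, so that both hairpin groups also lack Xist on the Xi. The 2 shYY1 samples received different hairpins. A clonal line represents 1 founding cell, so a difference between the WT and XiΔXist lines cannot be told apart from a difference between clones. The values are reads that cover a base at which the 129 and CAST genomes differ, counted per gene and allele. Each table pools the 2 samples of a group, so each gene has 1 value per allele and pool, no spread between replicates can be given, and no test between groups was possible. The intervals below cover counting error only.

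Fibroblasts build and remodel connective tissue, and they are defined by a combination of genes rather than by a single one. Platelet-derived growth factor receptors receive growth and migration signals, Thy1 and Cd34 are surface glycoproteins used to sort stromal cells, and Prrx1, Twist1 and Twist2 are transcription factors of limb, craniofacial and body wall mesenchyme. Vim encodes the intermediate filament of mesenchymal cells, S100a4 a calcium-binding protein also called fibroblast-specific protein, and Dpt the matrix protein dermatopontin. Several of these genes are read in only some fibroblast populations, and Cd34, Pdgfrb, Vim and S100a4 are also read in blood, vascular or other cells, so none of them alone marks a fibroblast.

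The WT, XiΔXist, shSCR and shYY1 pools held 24310035, 28329701, 2393545 and 2504345 allelic reads. Mitochondrial reads were 20.2% and 22.3% of the untreated pools and 36.7% and 39.5% of the hairpin pools. Levels are given as CPM, the 129 plus CAST reads of a gene per 1000000 allelic reads of its pool, with exact Poisson 95% intervals. At 3 reads, the floor used here, the CPM was 0.123 (WT), 0.106 (XiΔXist), 1.25 (shSCR) and 1.20 (shYY1). A gene with few strain differences has few allelic reads at any expression level, so CPM is compared between pools and never between genes. The targeted genes matched the labels, with Xist at 1456 CPM in WT and at most 2.40 CPM in the other pools, and Yy1 at 99.0 CPM (86.8 to 112) in shSCR and 36.7 CPM (29.6 to 45.1) in shYY1. In pools of cells, fewer cells that read a gene and less RNA per cell cannot be told apart.

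In the GENCODE annotation of GRCm38, Prrx1 (ENSMUSG00000026586, chr1:163245119-163313710, minus strand), Dpt (ENSMUSG00000026574, chr1:164796644-164824266, plus strand), Cd34 (ENSMUSG00000016494, chr1:194938819-194961279, plus strand) and Twist2 (ENSMUSG00000007805, chr1:91801461-91848028, plus strand) lie on chromosome 1. Between WT and XiΔXist, Twist2, Dpt and Cd34 differed by at least 2-fold, not all in the same direction, and Prrx1 did not. Whether genes of chromosome 1 differed more often than others was not tested. Prrx1, Dpt, Cd34 and Twist2 gave almost only 129 reads. The stretch of 180 bases that ends 71 bases before the RefSeq start is shown for each, from the GRCm38.p6 reference, which is C57BL/6J sequence and not that of 129 or CAST. Capitals mark the E-box CANNTG, the letters bound by TWIST proteins and many other basic helix-loop-helix factors, on either strand.

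Prrx1, chr1:163313721-163313900, minus strand: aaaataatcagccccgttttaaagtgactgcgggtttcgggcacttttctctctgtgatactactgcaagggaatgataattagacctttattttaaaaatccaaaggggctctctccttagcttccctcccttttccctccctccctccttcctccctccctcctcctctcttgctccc
Twist2, chr1:91801211-91801390, plus strand: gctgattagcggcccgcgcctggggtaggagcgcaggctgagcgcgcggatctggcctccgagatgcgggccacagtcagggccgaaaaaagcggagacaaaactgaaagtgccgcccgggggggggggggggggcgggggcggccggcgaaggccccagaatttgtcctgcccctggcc
Dpt, chr1:164796413-164796592, plus strand: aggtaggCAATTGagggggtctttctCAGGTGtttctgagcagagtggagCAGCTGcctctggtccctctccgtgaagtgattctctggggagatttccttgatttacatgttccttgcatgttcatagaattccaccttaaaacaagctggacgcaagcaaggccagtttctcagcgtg
Cd34, chr1:194938571-194938750, plus strand: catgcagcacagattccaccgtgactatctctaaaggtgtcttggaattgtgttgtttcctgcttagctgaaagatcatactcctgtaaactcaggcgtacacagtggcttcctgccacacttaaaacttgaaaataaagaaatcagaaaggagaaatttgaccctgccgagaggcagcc

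The Dpt window held 3 E-boxes, the farthest starting 243 bases before the start, and the Prrx1, Twist2 and Cd34 windows held none. An E-box was present in 55.4% of 27025 windows of this length, so its presence is common. Of the 8 members with a sequence, Pdgfra held 1 E-box and Prrx1, Twist1, Twist2, S100a4, Vim and Cd34 held 0. The letters GCCAT, the core of the YY1 motif, were in 25.8% of windows and in 0 of the 8, and TATAAA was in 8.68% of windows and, among the 8, in Twist1. A match is a description of the letters, and no match says nothing of what binds there.

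The other members are Pdgfra (ENSMUSG00000029231, chr5:75152292-75198215, plus strand), Pdgfrb (ENSMUSG00000024620, chr18:61045150-61085061, plus strand), Thy1 (ENSMUSG00000032011, chr9:44043384-44048579, plus strand), Twist1 (ENSMUSG00000035799, chr12:33957671-33959829, plus strand), S100a4 (ENSMUSG00000001020, chr3:90603771-90606045, plus strand) and Vim (ENSMUSG00000026728, chr2:13573927-13582826, plus strand). No member had a near-identical copy elsewhere in the annotated transcripts. Pdgfra, Prrx1 and Twist2 are each overlapped by genes on both strands, Dpt and Cd34 by a gene on the other strand, and S100a4 by a gene on the same strand. The use of strand in counting is not stated. For these 6 genes some reads could belong to the overlapping gene, while Pdgfrb, Thy1, Twist1 and Vim overlap no annotated gene.

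Pdgfra, the receptor that marks most embryonic fibroblasts, was read in every pool and most highly in WT. Its 129 and CAST reads were 484 and 701 in WT, 163 and 556 in XiΔXist, 10 and 72 in shSCR, and 9 and 62 in shYY1. These were 48.7 CPM (46.0 to 51.6) in WT, 25.4 CPM (23.6 to 27.3) in XiΔXist, 34.3 CPM (27.2 to 42.5) in shSCR and 28.4 CPM (22.1 to 35.8) in shYY1. WT stood above the other pools, and in the order shSCR, shYY1, XiΔXist the interval of shYY1 overlapped both of its neighbours.

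Pdgfrb, the receptor also known from pericytes and other perivascular cells, split the pools into the untreated and the hairpin pools. Its 129 and CAST reads were 204 and 62 in WT, 200 and 93 in XiΔXist, 173 and 62 in shSCR, and 227 and 138 in shYY1. The levels were 10.9 CPM (9.67 to 12.3) in WT, 10.3 CPM (9.19 to 11.6) in XiΔXist, 98.2 CPM (86.0 to 112) in shSCR and 146 CPM (131 to 161) in shYY1. WT and XiΔXist overlapped, and the hairpin pools were apart from them and from each other.

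Thy1, a surface glycoprotein (CD90) of stromal cells, was lowest in WT. Its reads numbered 197 (WT), 669 (XiΔXist), 92 (shSCR) and 115 (shYY1), of which only 2, in XiΔXist, came from CAST. Its levels were 8.10 CPM (7.01 to 9.32) in WT, 23.6 CPM (21.9 to 25.5) in XiΔXist, 38.4 CPM (31.0 to 47.1) in shSCR and 45.9 CPM (37.9 to 55.1) in shYY1. The order of the pools was WT, XiΔXist, shSCR and shYY1, and only the intervals of the 2 hairpin pools overlapped.

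Cd34, a sialomucin of stromal progenitors that is also read in blood progenitors and endothelium, was highest in WT and lowest in XiΔXist. Its 574, 44, 26 and 28 reads in WT, XiΔXist, shSCR and shYY1 were all 129 reads. They gave 23.6 CPM (21.7 to 25.6), 1.55 CPM (1.13 to 2.09), 10.9 CPM (7.10 to 15.9) and 11.2 CPM (7.43 to 16.2) in that order of pools. The hairpin pools overlapped each other and stood between the untreated pools, without overlap with either.

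Prrx1, the homeobox factor of limb bud and lateral plate mesenchyme, had many reads in every pool. It had 51786 reads from 129 and 37 from CAST in WT, 70483 and 53 in XiΔXist, and 1034 and 1374 reads, all from 129, in shSCR and shYY1. The levels were 2132 CPM (2113 to 2150) in WT, 2490 CPM (2471 to 2508) in XiΔXist, 432 CPM (406 to 459) in shSCR and 549 CPM (520 to 578) in shYY1. No intervals overlapped, and both untreated pools were above both hairpin pools.

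Twist2, a basic helix-loop-helix factor of dermal mesenchyme, was highest in XiΔXist. Its 927, 3248, 88 and 117 reads in WT, XiΔXist, shSCR and shYY1 were all from 129. The levels were 38.1 CPM (35.7 to 40.7), 115 CPM (111 to 119), 36.8 CPM (29.5 to 45.3) and 46.7 CPM (38.6 to 56.0). XiΔXist stood apart, and the intervals of the other 3 pools overlapped in the order shYY1, WT, shSCR. Twist1, its close relative, had 0 reads of either allele in all 4 pools, which at the floor of 3 reads allows up to 0.123 CPM in WT. This says nothing of its expression, since a gene whose exons hold few or no usable strain differences gives no allelic reads.

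Vim had the steadiest level of the members that passed the read minimum. Its 129 and CAST reads were 33678 and 45885 in WT, 28499 and 45788 in XiΔXist, 4081 and 2035 in shSCR, and 3706 and 1887 in shYY1. The levels were 3273 CPM (3250 to 3296) in WT, 2622 CPM (2603 to 2641) in XiΔXist, 2555 CPM (2492 to 2620) in shSCR and 2233 CPM (2175 to 2293) in shYY1. XiΔXist and shSCR overlapped, with WT above and shYY1 below them.

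Dpt, which binds decorin and collagen in the matrix, had the widest range of the 10 genes, 5.59 on the log2 scale of CPM + 1. Its reads, all from 129, numbered 1145 (WT), 87 (XiΔXist), 0 (shSCR) and 3 (shYY1). These were 47.1 CPM (44.4 to 49.9) in WT, 3.07 CPM (2.46 to 3.79) in XiΔXist, 0 CPM (up to 1.25 at the floor of 3 reads) in shSCR and 1.20 CPM (0.247 to 3.50) in shYY1. WT was above the rest, and the interval of shYY1 overlapped that of XiΔXist and the limit of shSCR. S100a4 was sparse in every pool, with 0 reads in WT, 12 in XiΔXist (1 of them from CAST), 5 in shSCR and 8 in shYY1, and no comparison reached the minimum of 50 reads.

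**Figure D1:**
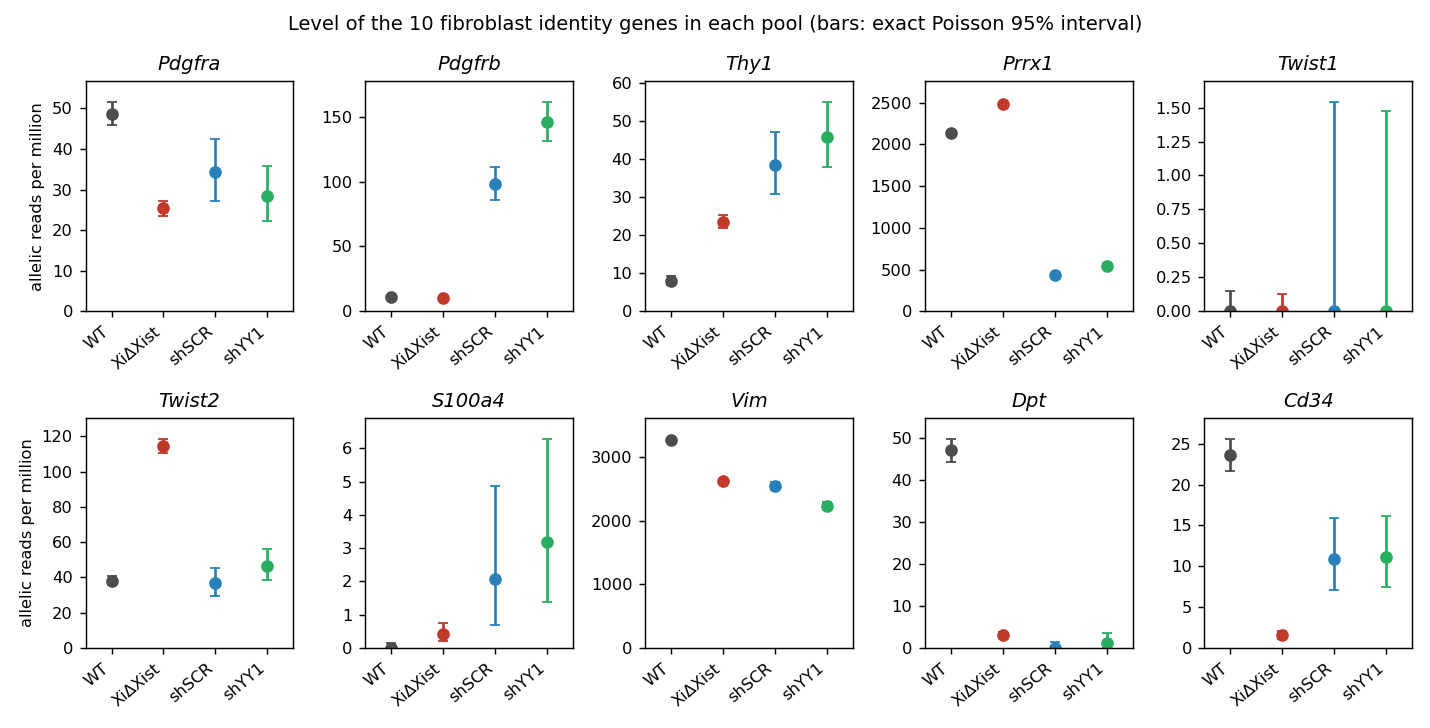
Level of each of the 10 genes in the 4 pools in CPM (vertical axes, a scale for each gene, starting at 0), with exact Poisson 95% intervals as bars. Pdgfrb is at 10.9 and 10.3 CPM in the untreated pools and at 98.2 and 146 CPM in the hairpin pools. Prrx1 is higher in the untreated than in the hairpin pools, and Dpt is at 47.1 CPM in WT and at most 3.07 CPM elsewhere.

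Xist loss was examined by setting XiΔXist against WT. In this comparison, Dpt and Cd34 were lower and Thy1 and Twist2 higher by at least 2-fold, and Pdgfra, Pdgfrb, Prrx1 and Vim stayed within 2-fold. Changes are log2 ratios of CPM + 1, which understate the change of genes with low values, and a gene was called at 2-fold or more if it had at least 50 reads in the pools compared together. Of the 8 members with enough reads, 2 were called higher and 2 lower. Over all 10763 genes with enough reads, 9.27% were called, 3.07% as higher and 6.21% as lower. The median change of the 8 members was -0.20, beside -0.11 (SD over genes 0.75) for all genes.

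Dpt was 15.3-fold lower in XiΔXist than in WT in CPM (95% counting interval 12.3 to 19.3), and its log2 change of -3.56 lay at percentile 0.557 of all genes. Cd34 was 15.2-fold lower (11.2 to 21.2), with a log2 change of -3.27. For Dpt and Cd34, neither sign nor call changed under any alternative that could be computed for them. Twist2 was 3.01-fold higher (2.79 to 3.24, log2 change 1.56) and Thy1 2.91-fold higher (2.48 to 3.43, log2 change 1.44), at percentiles 98.5 and 98.3. Pdgfra was 1.92-fold lower (1.75 to 2.11, log2 change -0.92), just inside the 2-fold limit, with a percentile of 6.97. Prrx1 was 1.17-fold higher (1.15 to 1.18), Vim had a CPM ratio of 0.801 (0.793 to 0.809) and Pdgfrb one of 0.945 (0.798 to 1.12), an interval that includes 1. With no second value per group, whether these differences exceed the spread between cultures or clones was not tested.

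Setting shYY1 against shSCR asks what YY1 knockdown does in cells without Xist on the Xi. Of the 7 members with enough reads, 0 were called in either direction, beside 2.43% of 8245 genes, 1.09% higher and 1.33% lower. Of the called genes 45.0% were higher, a split that was 57.7% with mitochondrial reads left out of the totals. The members' log2 changes ran from -0.26 for Pdgfra to 0.57 for Pdgfrb, with a median of 0.25, beside -0.08 for all genes. Pdgfrb was 1.48-fold higher in shYY1 (1.26 to 1.76), at percentile 94.5, and Prrx1 1.27-fold higher (1.17 to 1.38). Vim had a ratio of 0.874 (0.843 to 0.906). The ratios of Twist2 (1.27, 0.955 to 1.70), Thy1 (1.19, 0.900 to 1.59), Cd34 (1.03, 0.582 to 1.83) and Pdgfra (0.828, 0.594 to 1.15) had intervals that include 1, and for Cd34 the interval leaves room for a change of about 1.83-fold. Dpt, S100a4 and Twist1 had too few reads here.

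Setting shSCR against untreated XiΔXist places the hairpin cells beside the line they came from. The untreated pools were sequenced as paired 50-base reads and the hairpin pools as paired 150-base reads, so transduction, selection, sequencing run and read length cannot be told apart in this comparison. It shares a pool with each of the other comparisons. Pdgfrb and Cd34 were higher in shSCR and Prrx1, Dpt and Twist2 lower, so 2 and 3 of 8 members were called. That count was read against a background of 64.6% of 10444 genes called, 39.7% higher and 24.9% lower (61.4% of the calls higher, and 49.2% after the GC subtraction described below), so that being called here does not set a gene apart. The median change was 0.19 over the 8 members and 0.38 (SD over genes 2.22) over all genes.

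Pdgfrb was 9.49-fold higher in shSCR than in XiΔXist (7.96 to 11.3, log2 change 3.13) and Cd34 6.99-fold higher (4.13 to 11.6, log2 change 2.22). Prrx1 was 5.76-fold lower (5.42 to 6.13, log2 change -2.52) and Twist2 3.12-fold lower (2.52 to 3.90, log2 change -1.61). Dpt, with 0 reads in shSCR, was at least 2.45-fold lower when shSCR is set to the floor of 3 counts per pool, and the counting interval, which also covers the reads of XiΔXist, reaches down to 1.95-fold. Dpt was within 2-fold with a pseudocount of 5 (log2 change -0.69) and with shYY1 in place of shSCR (-0.89). Pdgfra (ratio 1.35, 1.06 to 1.70), Thy1 (1.63, 1.29 to 2.03) and Vim (0.974, 0.949 to 1.00) were within 2-fold. Against the percentiles of all genes, Pdgfrb was at 85.5, Cd34 at 77.0 and Prrx1 at 5.95, so none of the called members was among the most extreme genes.

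**Figure D2:**
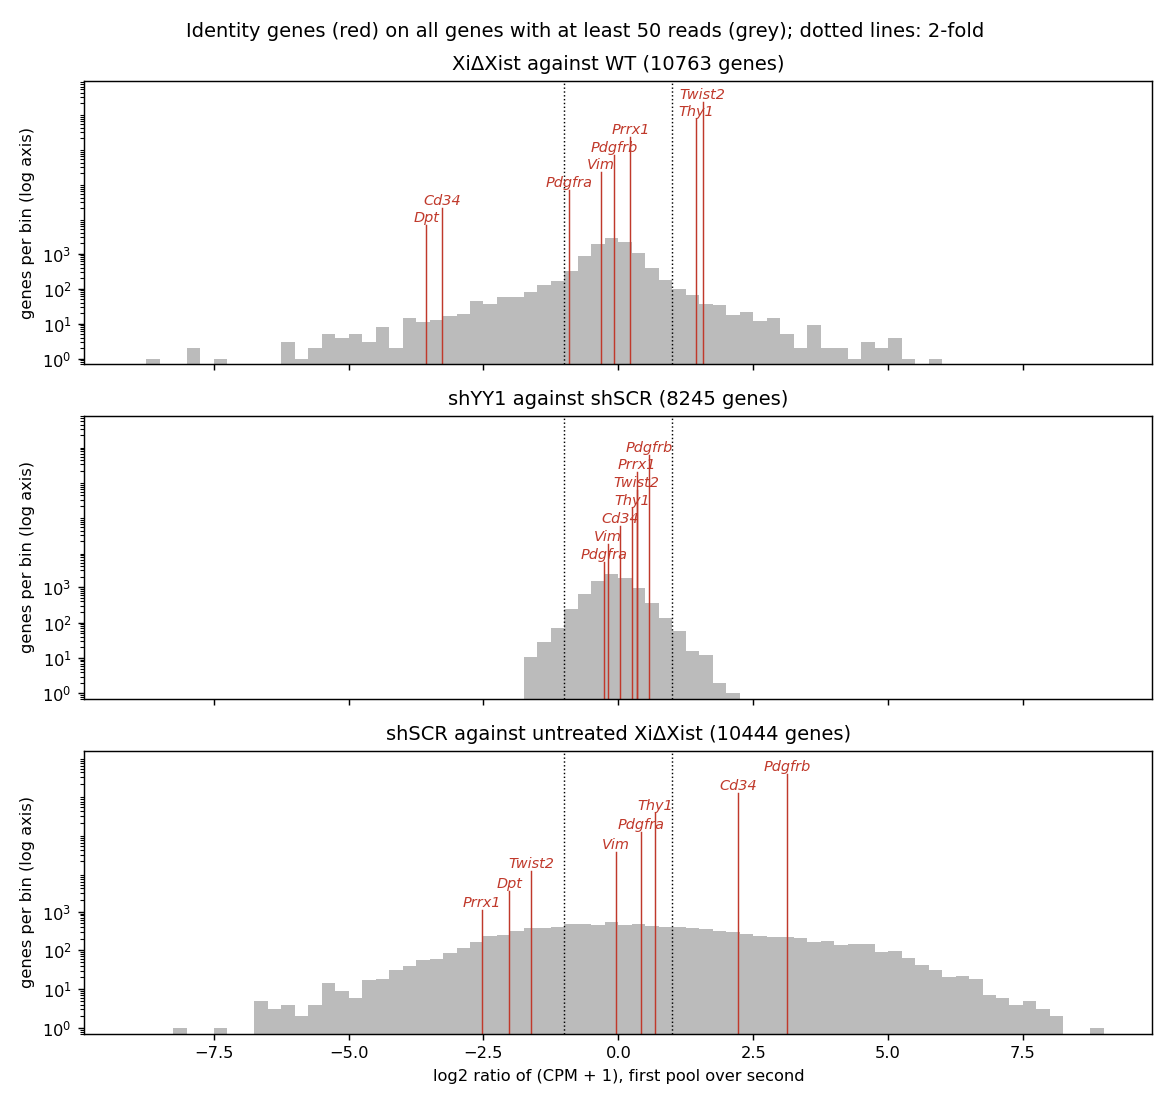
Number of genes (log axis) by log2 ratio of CPM + 1 for the 3 comparisons (grey bars), with the members that had enough reads as red lines and 2-fold as dotted lines; the height of a red line only carries its label. In XiΔXist against WT, Dpt (-3.56), Cd34 (-3.27), Thy1 (1.44) and Twist2 (1.56) lie outside 2-fold, no member does in shYY1 against shSCR, and the spread of all genes is widest in shSCR against untreated XiΔXist (SD 2.22).

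The change between the untreated and hairpin pools moved with the base composition of the transcripts. Across genes, the log2 change of shSCR against XiΔXist correlated with the GC content of the longest transcript with a Spearman rho of 0.672 over 10413 genes, while rho was -0.018 over 10730 genes for XiΔXist against WT and -0.140 over 8227 genes for shYY1 against shSCR. Genes are not independent replicates, the points of a comparison share their libraries, and these values are a description. With the genes cut into 10 bins of GC content, the median change ran from -1.43 at 25.3% to 39.8% GC to 3.96 at 55.7% to 70.0% GC. GC content was 54.9% in Pdgfrb, 55.8% in Thy1, 43.6% in Prrx1 and 42.8% in Cd34, beside a median of 47.1% over genes with at least 50 reads in a pool.

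With the median of its own GC bin subtracted, an alternative chosen after the data were seen, Pdgfrb differed by 0.73 and was no longer called. Thy1 went from 0.68 to -3.28, since genes of its GC content had a median change of 3.96. The values of Twist2 (-3.20), Dpt (-2.42), Prrx1 (-1.82) and Cd34 (2.92) kept their sign and call, and Vim (-0.05) and Pdgfra (0.02) were near 0. Under this subtraction 1 member, Cd34, was higher and 4 were lower. The same subtraction in XiΔXist against WT left Dpt at -3.46, Cd34 at -3.16, Twist2 at 1.68 and Thy1 at 1.59.

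**Figure D3:**
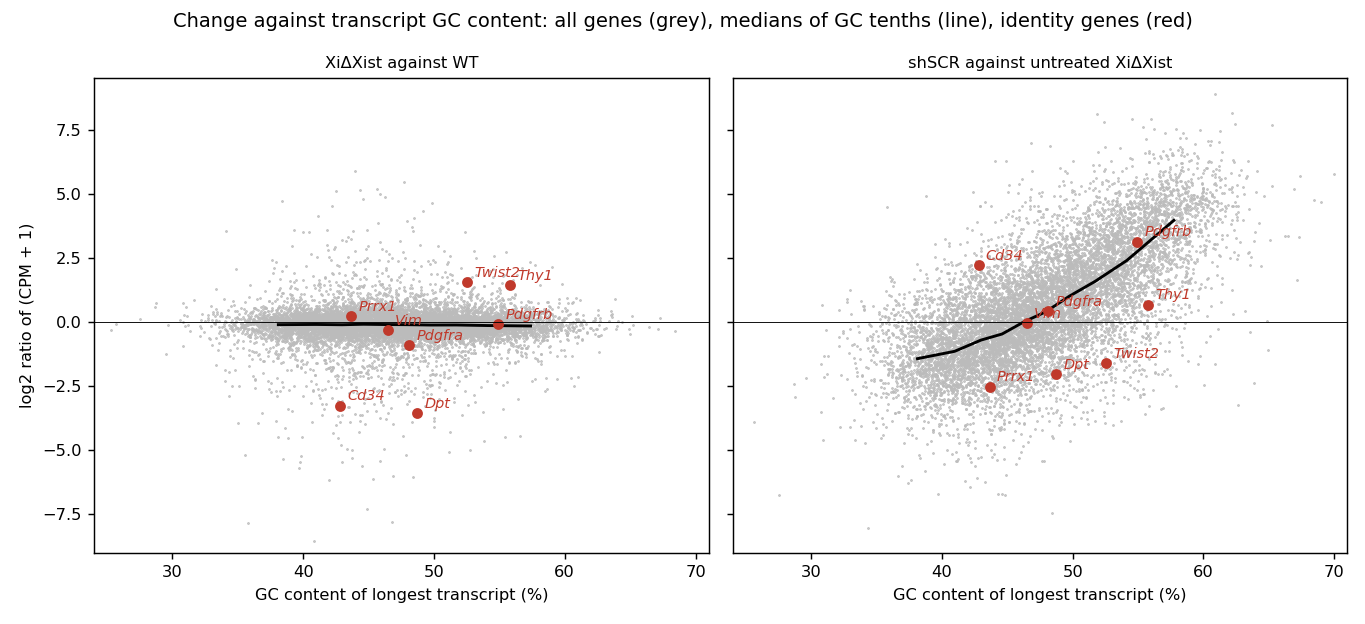
Log2 ratio of CPM + 1 (vertical axis) against the GC content of the longest transcript in percent (horizontal axis), for XiΔXist against WT (left) and shSCR against untreated XiΔXist (right), with all genes in grey, the medians of 10 GC bins as a line and the members in red. The line is flat on the left and runs from -1.43 to 3.96 on the right, where Pdgfra, Vim and Pdgfrb lie near it, Cd34 above it, and Thy1, Twist2, Dpt and Prrx1 below it.

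The share of 129 reads among the allelic reads of a gene is a ratio within a pool. It was set beside the summed share of the other genes within 5 Mb, since the median autosomal share was itself between 69.7% and 74.5% in the 4 pools. Prrx1, Dpt and Cd34 lay in stretches where every neighbouring gene with at least 10 reads had over 90% 129 reads in each pool, 69 of 69 genes around Prrx1 in WT. In such a stretch a share near 100% describes the region, and it does not single out the gene. The neighbours of Twist2 had 95.5% 129 reads in WT and 87.8% in shYY1, while Twist2 itself had no CAST read, a share of up to 0.324% CAST in WT and 2.56% in shYY1.

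Thy1 differed from its surroundings on chromosome 9. Its 129 share was 99.7% in XiΔXist and 100% in each other pool, and where CAST reads were absent their share could be up to 1.52% in WT, 3.26% in shSCR and 2.61% in shYY1. The neighbours within 5 Mb had 39.5%, 54.6%, 50.6% and 50.6% 129 reads, and in WT 5 of 58 of them were over 90%. Rnf26, the nearest gene with reads at 47.1 kb, had 47.6%, 61.1%, 54.5% and 57.7% (18 to 71 reads), and Mcam, the next at 85.9 kb, had 28.1%, 41.5%, 31.3% and 41.2%. So the reads of Thy1 came nearly all from 129 in a region read from both alleles, and this was so in all 4 pools.

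Pdgfra leaned the other way. Its 129 share was 40.8% (Wilson 95% interval 38.1 to 43.7) in WT, 22.7% (19.8 to 25.9) in XiΔXist, 12.2% (6.76 to 21.01) in shSCR and 12.7% (6.81 to 22.4) in shYY1. Its neighbours on chromosome 5 had 63.6%, 50.9%, 54.0% and 52.7%, above Pdgfra in each pool, and the adjacent gene Chic2 had 63.4%, 49.3%, 56.3% and 54.8%. Between WT and XiΔXist the share of Pdgfra differed by -18.2 points (Newcombe 95% interval -22.2 to -13.9), and by -8.98 points, under the limit of 10, with CAST reads scaled to a median autosomal share of 50%. Scaled to the total of its own allele, the log2 change was -1.67 for the 129 reads and -0.53 for the CAST reads, so the lower level of Pdgfra in XiΔXist was mostly in 129 reads. The neighbours differed in the same direction between these pools, from 63.6% to 50.9%.

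Pdgfrb had 129 shares of 76.7% (71.3 to 81.4), 68.3% (62.7 to 73.3), 73.6% (67.6 to 78.8) and 62.2% (57.1 to 67.0) in WT, XiΔXist, shSCR and shYY1, above its neighbours, at 54.1% to 56.0%, in each. From shSCR to shYY1 it differed by -11.4 points (-18.7 to -3.74), with a log2 change of 1.15 in CAST reads and 0.31 in 129 reads. Vim followed its surroundings on chromosome 2. Its shares were 42.3%, 38.4%, 66.7% and 66.3%, its neighbours had 35.4%, 36.4%, 65.1% and 67.0%, and the difference of 28.4 points (27.1 to 29.6) between shSCR and XiΔXist was thus shared with the region.

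Counted by a move of at least 10 points, 1 of 8 members moved between WT and XiΔXist (Pdgfra), beside 21.8% of 11409 autosomal genes (8.35% higher, 13.4% lower). The count was 1 of 7 between shSCR and shYY1 (Pdgfrb), beside 22.2% of 9720 (11.2% higher, 11.1% lower), and 2 of 7 between XiΔXist and shSCR (Vim, and Pdgfra by -10.5 points, -16.8 to -1.19, or -6.67 with CAST reads scaled), beside 33.2% of 9212 (17.8% higher, 15.4% lower). Thy1, Prrx1, Twist2, Dpt and Cd34 had 99.7% to 100% 129 reads in each pool where they had at least 10 reads. Such shares had no room for a rise of 10 points. The counts therefore do not show whether the members moved more or less often than other genes.

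**Figure D4:**
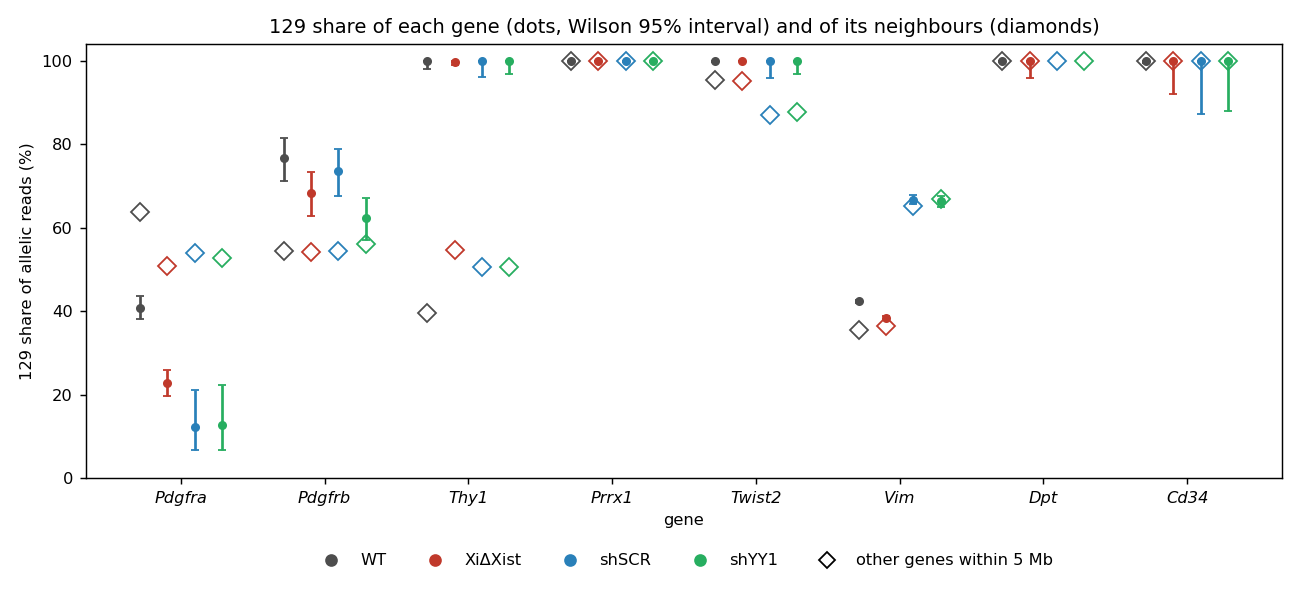
Percent of allelic reads from 129 (vertical axis) for the members with at least 10 reads, in the 4 pools (dots, Wilson 95% intervals), and for the other genes within 5 Mb summed (open diamonds); Dpt has under 10 reads in the hairpin pools and no dot there. Thy1 is at 99.7% to 100% with neighbours at 39.5% to 54.6%, Pdgfra lies below its neighbours in every pool, and Vim follows its neighbours from 38.4% to 66.7%.

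Other genes of the same kind were taken from lists. These lists, like the members, were chosen with earlier results of these data known. The shares called therefore do not show whether such genes changed more often than all genes. Of 38 further mesenchymal genes, 23 had enough reads in XiΔXist against WT, of which 3 were higher and 3 lower, beside 3.07% and 6.21% of all genes, with a median change of -0.27 beside -0.11. Alcam, a stromal adhesion molecule, went from 161.5 to 1101 CPM (log2 change 2.76), Dcn, the matrix proteoglycan decorin, from 25.1 to 77.4 CPM (1.58), and Postn, the matrix protein periostin, from 490 to 103 CPM (-2.24). In shYY1 against shSCR, 0 of 21 were called, beside 2.43% of all genes, with a median of 0.09. In shSCR against XiΔXist, 9 of 23 were higher and 8 lower, 39.1% and 34.8%, beside 39.7% and 24.9% of all genes, with a median of 0.52 beside 0.38. Dcn had 0 reads in shSCR, while Sparc, a matrix glycoprotein, was at 122 CPM in shSCR and 3.28 CPM in XiΔXist. The transcription factor Osr1 was at 56.4 and 1.16 CPM. Fn1, the matrix protein fibronectin, was at 211, 217, 3578 and 3851 CPM in WT, XiΔXist, shSCR and shYY1. Itgb1, the common integrin chain of its receptors, was at 4017, 3129, 1089 and 1027 CPM. GC content was 52.5% in Sparc, 53.5% in Fn1 and 57.0% in Osr1. Their GC bins had median changes of 1.58, 2.40 and 3.96 in shSCR against XiΔXist. Dcn, at 37.4%, was in a bin with a median of -1.43.

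Of the ligands and relatives of the growth factor receptors, 3 of 5 had enough reads, and in XiΔXist against WT 1 was higher and 2 lower, beside 3.07% and 6.21% of all genes. Pdgfc, a ligand of PDGFRA, went from 143 to 374 CPM (log2 change 1.38), and Pdgfd, a ligand of PDGFRB, from 72.0 to 2.26 CPM (-4.49). Pdgfrl, a receptor-like gene, went from 6.33 to 0.918 CPM (-1.94). In shYY1 against shSCR 0 of the 3 were called, beside 2.43% of all genes. In shSCR against XiΔXist, where 64.6% of all genes were called, Pdgfc was lower (-3.13) and Pdgfrl higher (2.82).

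Partners and inhibitors of the TWIST factors, Tcf3, Tcf4, Tcf12 and the Id genes among 12 genes, showed 0 calls of 5 with enough reads in XiΔXist against WT and 0 of 6 in shYY1 against shSCR, where 9.27% and 2.43% of all genes were called. In shSCR against XiΔXist 3 of 6 were higher and 1 lower, 66.7% called beside 64.6% of all genes, led by Tcf3 (log2 change 5.97, GC content 61.0%) and Id3 (3.23), with Id2 lower (-2.74). Among 6 other intermediate filament genes 0 of 4 were called in the first and the second comparison, and 3 of 4 were higher in shSCR against XiΔXist, beside 39.7% of all genes, Lmna (4.75), Lmnb2 (4.53) and Nes (1.33). The GC content of these was 53.1%, 57.6% and 55.5%, in GC bins whose median change was 2.40 for Lmna and Nes and 3.96 for Lmnb2. Among 8 other S100 genes 0 of 4 were called in XiΔXist against WT and 0 of 3 in shYY1 against shSCR. In shSCR against XiΔXist 4 of 4 were higher, again beside 39.7% of all genes, S100a11 (4.04), S100a6 (3.59), S100a13 (1.62) and S100a10 (1.28). The GC content of these was 49.5%, 52.0%, 54.4% and 51.4%, in GC bins with median changes of 1.01, 1.58, 2.40 and 1.58. S100a11 and S100a6 thus lay above the median of their bin, and S100a13 and S100a10 below it.

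Markers of other cell types were summed in each pool as a check of the label. The 38 mesenchymal genes summed to 12415, 11409, 9595 and 9495 CPM in WT, XiΔXist, shSCR and shYY1. Epithelial markers summed to 1.32, 0.494, 12.95 and 11.2 CPM in the same order, with 5 of 11 at 0 in all pools. Krt19 gave 0.617, 0.141, 12.95 and 8.78 CPM of these sums. Blood markers summed to 1.93, 2.97, 12.95 and 22.8 CPM, with 3 of 10 at 0 in all pools. The epithelial and blood sums were thus higher in the hairpin pools. Krt19 has a GC content of 57.6%, in a GC bin with a median change of 3.96 in shSCR against XiΔXist. Cd14 and Csf1r, at 52.5% and 54.5% GC, were in bins with medians of 1.58 and 2.40. They had 14 and 3 reads in shSCR and 19 and 14 in shYY1. The cause of the higher sums was not tested. Endothelial markers summed to between 2.37 and 5.01 CPM, with 4 of 10 at 0 in all pools. Muscle lineage markers summed to at most 0.165 CPM, and the 4 pluripotency markers to 0. The genes with the highest level in these lists were Krt19 (at most 12.95 CPM), Kdr (2.26 CPM in WT), Egfl7 (at most 2.40 CPM), Cd14 (7.59 CPM) and Csf1r (5.59 CPM). Neural and neural crest markers were between 22.6 and 29.1 CPM, mostly Pax3, at 17.1, 23.1, 14.6 and 28.4 CPM. A marker with few strain differences would be at 0 whatever its expression, so these sums are no upper limit on other cells.

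Markers of cell types related to fibroblasts also differed between pools. Mural cell markers summed to 32.7, 2.26, 56.8 and 51.9 CPM, of which Mcam, an adhesion molecule of pericytes, gave 31.3, 1.87, 54.7 and 47.5 CPM. In XiΔXist against WT, Mcam was 16.8-fold lower (12.7 to 22.6), beside the lower Cd34 and Dpt. The endothelial gene Kdr, a growth factor receptor, also had 55 reads in WT and 0 in XiΔXist (log2 change -1.71), while Cdh5, the endothelial cadherin, had 12 and 47 reads (3.36-fold higher, 1.76 to 6.96, within 2-fold on the scale of CPM + 1). Beside Cd34, also read in endothelium, these markers thus went in opposite directions. Pdgfrb, also read in mural cells, did not follow it in the untreated pools, at 10.9 and 10.3 CPM. Of the 7 mural genes 2 were at 0 in all pools, and only Mcam had enough reads to compare. Fat cell markers summed to 164, 48.9, 40.9 and 31.1 CPM, mostly Lpl, at 162 CPM in WT and 45.2 CPM in XiΔXist. The other fat gene with enough reads, Fabp4, went the opposite way, from 0.658 to 3.46 CPM, 5.26-fold higher in XiΔXist (3.08 to 9.56). Of 2 fat genes 1 was thus higher and 1 lower, beside 3.07% and 6.21% of all genes. Cartilage and bone markers summed to 46.9, 61.1, 152 and 85.1 CPM, mostly Sox9, which was 2.15-fold lower in shYY1 than in shSCR (1.74 to 2.65). The part of such cells in the levels of the 10 genes was not tested.

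**Figure D5:**
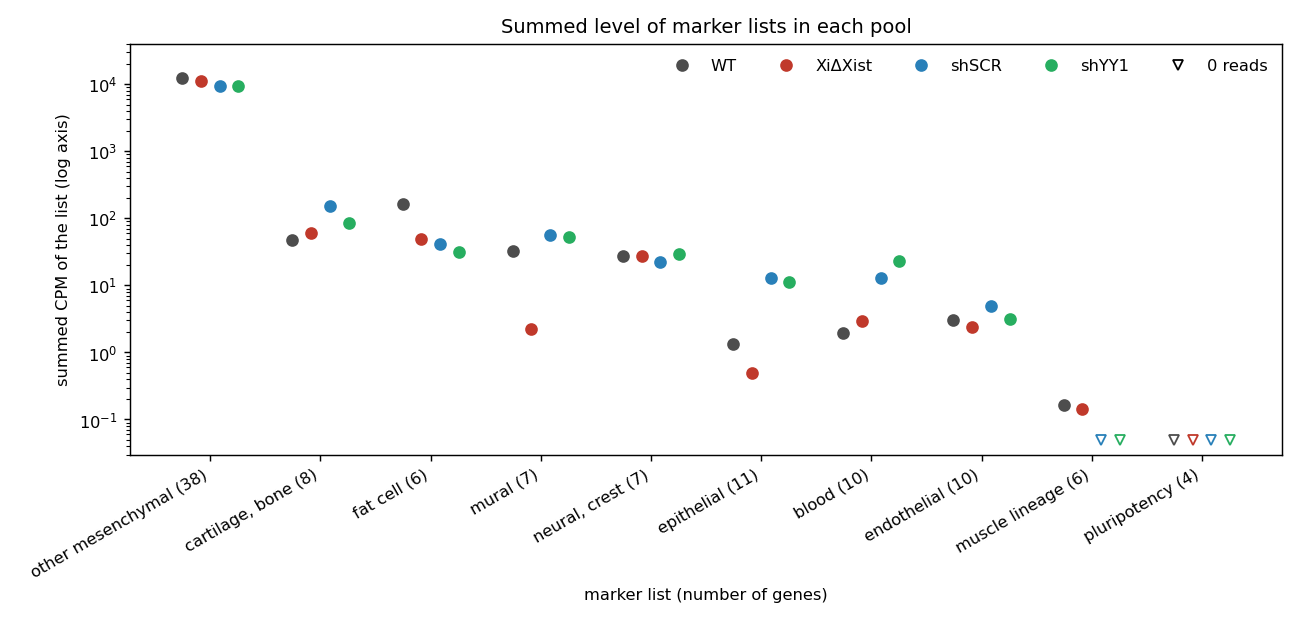
Summed CPM of the marker lists (log axis) in the 4 pools, with the number of genes in each list in brackets and open triangles for a sum of 0 reads. Levels are to be compared between the pools of a list and not between lists. The mesenchymal list lies between 9495 and 12415 CPM in the 4 pools. The mural list is at 2.26 CPM in XiΔXist and between 32.7 and 56.8 CPM in the other pools, mostly from 1 gene, Mcam (1.87 CPM in XiΔXist and 31.3 CPM in WT).

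Over all 10419 genes with at least 50 reads in a pool, the pools formed pairs. The log2(CPM + 1) values of WT and XiΔXist correlated with a Pearson r of 0.949 and differed by 2-fold or more in 9.45% of genes, and those of shSCR and shYY1 with r of 0.965 and in 6.70%. Between untreated and hairpin pools r was between 0.512 and 0.544 and between 60.7% and 63.1% of genes were 2-fold apart. These are correlations across genes, which are not independent, between pools that differ about 10.2-fold to 11.8-fold in depth, untreated over shSCR. Of the 10 members, Vim, Prrx1, Pdgfra, Pdgfrb, Thy1, Twist2 and Cd34 had at least 26 reads in all 4 pools, while Dpt was at or under the floor in both hairpin pools, S100a4 was sparse and Twist1 had 0 reads. The 4 pools thus shared the reading of 7 of the 10 genes and differed in their levels. By the range of log2(CPM + 1), Vim was the most even, and Dpt, Pdgfrb and Cd34 were the most uneven among those called. The range of Pdgfrb lay between untreated and hairpin pools. Its change of 3.13 in shSCR against XiΔXist was 0.73, and not called, with the GC-bin median subtracted. Thy1 (-3.28), Twist2 (-3.20) and Cd34 (2.92) were then the members farthest from 0.

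The genes most like Dpt across the 4 pools were sought among 8303 protein-coding genes with at least 50 reads in a pool, by the Euclidean distance of centred log2(CPM + 1) values, on chromosomes other than its own. The nearest were Gm6871 on chromosome 7 (distance 0.59), with 36.0, 1.48, 0 and 1.20 CPM, Aspn on chromosome 13 (0.67), the matrix proteoglycan asporin, with 57.3, 6.81, 1.25 and 3.19 CPM, and C1ql3 on chromosome 2 (0.68), with 44.4, 5.26, 0 and 0.799 CPM. Each was highest in WT, lower in XiΔXist and at 8 reads or fewer in the hairpin pools. With 4 pools, many genes can have such a pattern, and it is given as a description.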

How the data were processed

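The files held, for each group and allele, 1 column of raw counts per Ensembl gene, deposited by the authors without normalization. The study's methods state that both replicates of a group were pooled by the authors, who aligned the reads with TopHat to a genome masked at 129S1/SvImJ and CAST/EiJ differences (mm10), removed reads of mapping quality under 30, assigned the others to an allele with SNPsplit and counted exons with featureCounts 1.6.3. Annotation release and strand use are not given in the sources used here. No replicate model could be fitted to pooled columns, so sizes with counting intervals are given and no p-values.

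Symbols, positions and GC content came from GENCODE M21 (GRCm38), which matched 45143 of 46078 IDs. The other 935 (at most 0.0925% of reads) stayed in the totals only. CPM was computed over all allelic reads of both alleles. Changes were log2 ratios of CPM + 1, called at 2-fold with 50 or more reads summed over both pools, and shares at 10 points with at least 10 reads in each pool. Intervals were exact Poisson (CPM), exact conditional binomial (CPM ratios), Wilson (shares) and Newcombe (share differences), all 95%, and the limit for 0 reads was 3 counts. PCR copies are not independent molecules, so these cover counting error only. Copies were sought with blastn 2.17.0 at 90% identity over 50% of the longest transcript. Promoter windows came from RefSeq (GRCm38.p6), where 8 of 10 members matched.

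The members and gene lists were chosen with earlier results of these data known. From each other list, up to 3 genes past 2-fold with the largest change per comparison were to be named, with the 2 of highest CPM for marker lists; the text gives those that bear on the members. Chic2, Rnf26 and Mcam were named as nearest genes with reads, Cdh5 after its values were seen. The alternatives were other library totals, size factors, pseudocounts, read minimums, single alleles and scaled CAST reads. The computation was tested on simulated data and used Python 3.11.15, numpy 2.4.6, pandas 2.3.3, scipy 1.17.1 and matplotlib 3.10.9.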

Additional observations from a re-analysis of the deposited data

How the results depend on the processing

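No paired analysis was possible because the deposited columns pool the replicates of a group, and for the same reason no replicate could be left out. No called difference changed sign under any alternative run. Among the alternative values for the counts of members, mesenchymal genes and shares, 83 stayed within 1.5 times the value reported and 12 did not. With CAST reads only, 0 members were higher and 0 lower among the 4 with enough reads in XiΔXist against WT (2 and 2 with both alleles), since Dpt, Cd34, Thy1 and Twist2 have almost no CAST reads; 1 was higher in shYY1 against shSCR (Pdgfrb), and 1 was higher and 1 lower in shSCR against XiΔXist. In shYY1 against shSCR, no minimum of reads gave 1 higher (Dpt, on 3 reads). In shSCR against XiΔXist, 1 member was higher with at least 200 reads and 1 with the GC medians subtracted (2 as reported). Dpt was no longer called lower there with a pseudocount of 5 (-0.69) or with shYY1 in place of shSCR (-0.89). Members moved in 129 share numbered 0 between WT and XiΔXist with CAST reads scaled to a median autosomal share of 50%, and 3 at a limit of 3 points, and they numbered 1 between XiΔXist and the hairpin pool both with scaled reads and with shYY1 in place of shSCR, the latter chosen after the data were seen. Over all genes, a pseudocount of 5 gave 192 higher and 373 lower in XiΔXist against WT (330 and 668 as reported). In shYY1 against shSCR it gave 34 and 38, no minimum 1202 and 1182, and at least 200 reads 6 and 12 (90 and 110 as reported). Median-of-ratios size factors moved the median of all genes from -0.11 to 0.0069 in XiΔXist against WT and from 0.38 to 0.03 in shSCR against XiΔXist, where nuclear totals gave 0.67. Where no other cause is named, it was not tested. The depth of the hairpin pools limits what can be seen of Dpt and S100a4, which had between 0 and 8 reads there.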
